A study of Bos taurus with 25 samples.

Results

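The genes described here make the whey proteins of milk and the milk sugar lactose. They were LALBA, PAEP, GLYCAM1, LTF and LPO among the whey proteins, and B4GALT1, UGP2, SLC2A1, HK2 and PGM1 on the route to lactose. The members were all probes, other than controls, whose transcript name on the array belonged to 1 of these 10 symbols. Of the 10 genes, 9 were matched to 26 of the 43653 probes of the array, and HK2 is named only. The 9 genes compare with 11068 gene symbols that could be paired with a probe in all.

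The biopsies came from multiparous lactating Holstein cows that were injected weekly with 5 mL of solution, from before calving until the biopsies 64 ± 3 days after calving. Control cows received saline (0.9%), the B9 group 320 mg of vitamin B9 (pteroylmonoglutamic acid), the B12 group 10 mg of vitamin B12 (cyanocobalamin), and the B9 + B12 group both doses. Hepatic tissue was measured in 3 control, 3 B9, 4 B12 and 2 B9 + B12 cows, and the mammary gland in 3, 3, 4 and 3 cows. Each 1-colour array held the labelled RNA of a single cow, and 12 of the 13 cows gave both tissues. The fluorescence of each probe is given as a log2 intensity after background correction and normalization, so that a difference of 1 is a 2-fold change. Between 64.5% and 84.2% of the probes were well above background per array, no spot was saturated, and precision is set by how few cows each group held. The hepatic arrays of cow 57 (B9) and cow 32 (B9 + B12) stood apart, with median correlations of 0.972 and 0.973 with the other hepatic arrays, against up to 0.992 elsewhere. The tissue labels were borne out by marker genes, since 11 of 15 genes of the milk secretory epithelium were higher in the mammary gland, led by CSN1S2 (11.73 on the log2 scale), CSN3 (11.21) and BTN1A1 (10.96, well above background on 1 of 12 hepatic arrays). Of the other 4, the keratin genes KRT8 (−1.60) and KRT18 (−3.31) were lower there, and 2 were not called. In turn, 15 of 16 hepatocyte genes were higher in the liver, with differences of −11.52 for FGA, −11.18 for FGB and −10.83 for APOH, and ARG1 was higher in the gland (1.05). Mammary tissue of cow 57 had the highest mean over the hepatocyte genes (9.16, against 7.90 to 8.59 in the other mammary biopsies).

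Whey is the part of milk that stays dissolved when the caseins clot. In ruminants its most abundant proteins are β-lactoglobulin, encoded by PAEP, and α-lactalbumin, encoded by LALBA. Lactose is made in the Golgi of the secretory cell, where α-lactalbumin binds the galactosyltransferase B4GALT1 and turns it from building glycoprotein sugars to joining galactose with glucose. The sugars come from blood glucose, which enters the cell through the transporter SLC2A1, is phosphorylated by hexokinases such as HK2, is moved between its phosphate positions by PGM1, and is activated to UDP-glucose by UGP2. Since lactose draws water into milk, this route is tied to milk volume. Of the other whey genes, LTF encodes the iron-binding lactoferrin, LPO the antibacterial enzyme lactoperoxidase, and GLYCAM1 a mucin-like glycoprotein.

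The 5 whey protein genes were all far higher in the mammary gland than in the liver. Each gene is described by its brightest probe in the mammary gland, and for this comparison all 25 arrays were normalized by quantiles together. LALBA (probe A_73_P038871) had a log2 intensity of 18.65 ± 0.03 (SD, n = 13) in the mammary gland and of 6.69 ± 0.60 (SD, n = 12) in the liver, where it was well above background on 10 of 12 arrays. The difference was 11.99 (standard error 0.16), and within single cows it ranged from 10.75 to 12.60. The difference was 14.68 with the processed signal of the image software scaled by the 75th percentile of each array. That scaling alone gave 12.83. The hepatic signal lay close to background, and the part of the background correction in this move was not tested. GLYCAM1 (A_73_114339) differed by 11.79 (standard error 0.11) and PAEP (A_73_P459006) by 9.51 (standard error 0.31). Over other ways of processing the data they ran from 11.42 to 14.26 and from 8.74 to 11.14. The size depended on the probe, with 10.99 for the other LALBA probe, and 12.19 and 11.72 for the other 2 PAEP probes, so that these 3 genes have no fixed order. The other GLYCAM1 probe was well above background on 4 of 12 hepatic arrays and its difference is left out. The difference of the brightest PAEP probe ranged widely between cows, from 7.14 to 10.86. Its intensity ran from 7.91 to 11.67 in the liver and from 18.77 to 18.84 in the mammary gland. Quantiles leave such bright spots almost no room to vary. By the 75th percentile of each array, the intensity ran from 8.38 to 12.43 in the liver and from 18.22 to 18.92 in the mammary gland. LPO (A_73_P041486) was 7.99 higher (standard error 0.12), or 254-fold, and LTF (A_73_116655) 6.80 higher (standard error 0.31), or 111-fold. The other LTF probes differed by 4.58 to 6.82. No mammary biopsy of any of these genes reached down to the range of the liver biopsies. In a bulk biopsy, a difference in the number of cells of a type cannot be told apart from a difference in RNA per cell.

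On the route to lactose, the differences were smaller and did not all run the same way. B4GALT1 (A_73_P461151), the catalytic partner of α-lactalbumin, was 4.51 higher in the mammary gland (standard error 0.16), a 22.8-fold difference. Its hepatic intensity of 11.38 ± 0.33 (SD, n = 12) was well above background on every array. SLC2A1 (A_73_104917), the glucose transporter, was 3.05 higher in the gland (standard error 0.12), and its other probes were 1.22 and 0.92 higher. UGP2 (A_73_P214232), which makes UDP-glucose, was 1.69 higher (standard error 0.15). PGM1 (A_73_119692), which in the liver also serves the making and breakdown of glycogen, was the only member lower in the mammary gland, by 6.36-fold (log2 difference −2.67, standard error 0.08). The intensity of this probe was 10.69 ± 0.16 (SD, n = 13) in the mammary gland and 13.32 ± 0.23 (SD, n = 12) in the liver. The other PGM1 probes differed by −2.57 and −1.68.

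All 9 genes passed an adjusted p of 0.05 with at least a 2-fold difference by limma, where 20.2% of all genes did, a gene being here 1 of the 27841 transcript names of the array. Of the members 8 were higher in the mammary gland, where 11.5% of all genes were, and 1 was lower, against 8.7%. Their adjusted p ranged up to 6.23e-09 over the brightest probes, the value of UGP2. In each of the 9 genes the 12 cows with both tissues differed in the same direction (exact two-sided sign-flip permutation test, p = 0.000488, which 12 cows cannot undercut). By probe, 24 of 26 were called, and the remaining 2 fell short of a 2-fold difference, namely A_73_P254271 of UGP2 (0.90) and A_73_P346251 of SLC2A1 (0.92).

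**Figure D1:**
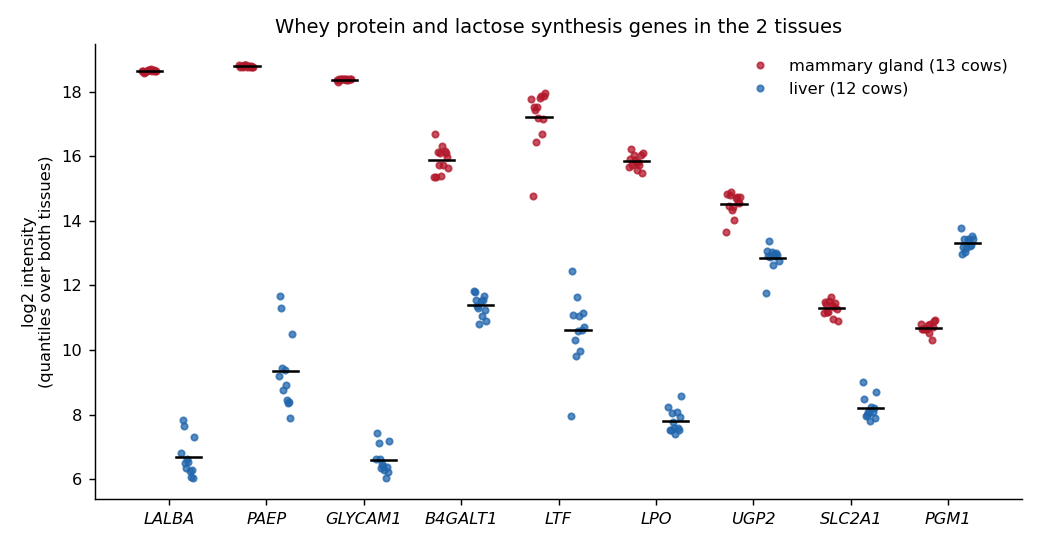
Log2 intensity, normalized by quantiles over both tissues, of the brightest probe of each member gene in the mammary gland (13 cows) and the liver (12 cows), with 1 point per cow. By these probes the whey protein genes differ by 6.80 or more on the log2 scale by limma. Among them the points lie closest for LTF, whose lowest mammary value is 14.76 and highest hepatic value 12.44. UGP2 differs by 1.69 and PGM1 lies lower in the mammary gland.

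The size of these differences depended on how the tissues were scaled, and for UGP2 the direction did as well. The median difference of all probes was 0.03 after quantiles over both tissues, 0.80 after scaling each array by its 75th percentile, and −0.38 after quantiles within each tissue. The share of called probes that were higher in the mammary gland was 52.9%, 80.7% and 9.79%, respectively. UGP2 differed by 1.69, 1.00 and −0.19 under these 3 scalings, and under the last of them it was higher in the mammary gland in 3 of 12 cows only. Its adjusted p was then 0.292 by limma. The other 8 members kept their direction and passed the test under all 3 scalings. Over these 3 scalings, the brightest probe of LALBA ranged from 11.62 to 12.83, of LPO from 6.81 to 8.02 and of LTF from 5.57 to 6.80. That of B4GALT1 ranged from 2.98 to 4.51, of SLC2A1 from 1.76 to 3.05, and of PGM1 from −4.40 to −2.67.

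**Figure D2:**
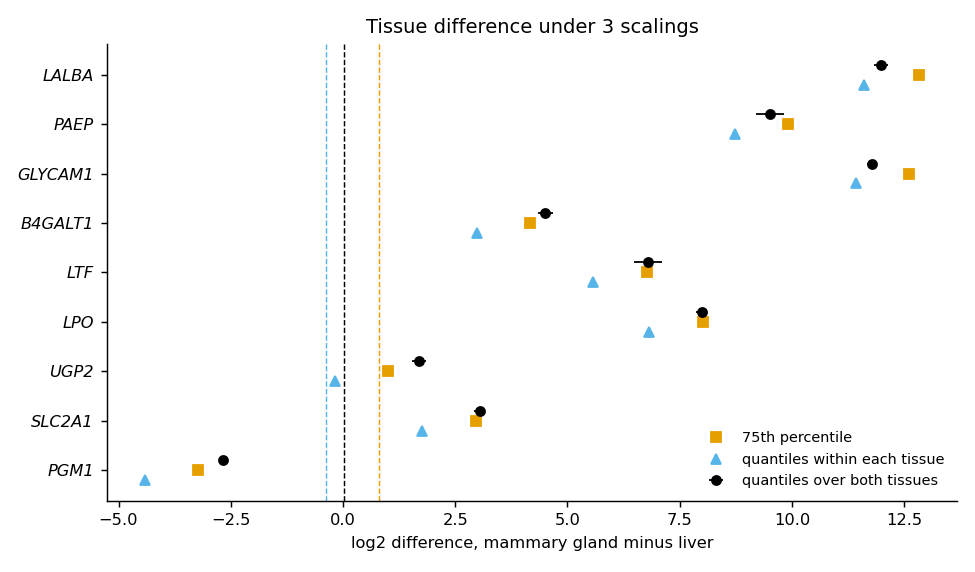
Log2 difference between mammary gland and liver of each member gene under quantiles over both tissues, the 75th percentile of each array, and quantiles within each tissue. UGP2 moves from 1.69 to −0.19 across the line of no difference, and the other 8 genes stay on their side of it.

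Other genes that handle the same sugars were counted in the same comparison. Each listed gene, here and below, is described by its brightest probe over both tissues. Of all probes, 9.89% were called higher in the mammary gland and 8.8% lower. Of 24 listed genes of lactose synthesis and sugar supply outside the members, 19 were found, of which 8 were higher in the mammary gland, 3 lower and 8 not called, with a median difference of 0.79, against 0.03 for all probes. The glucose transporters SLC2A8 and SLC2A4 were higher in the gland by 3.69 (standard error 0.12) and 3.55 (standard error 0.19). The genes lower in the gland were UGDH (−4.38), which turns UDP-glucose to UDP-glucuronic acid, and GALK1 (−3.11) and GALT (−2.23) of the breakdown of galactose. SLC35A2, the carrier that brings UDP-galactose into the Golgi, differed by 0.06 (standard error 0.08) and was not called (named after its value was seen). Of 18 further listed genes of whey proteins, 16 were found, with 6 higher, 4 lower and a median of 0.51. The largest differences towards the gland were those of SPP1 (osteopontin, 8.97), PIGR (the carrier of secretory immunoglobulins, 4.49) and XDH (2.89), and those towards the liver were ALB (serum albumin, −10.79), TF (transferrin, −10.64) and CLU (−3.31). Of the cell type lists, 7 of 8 myoepithelial and smooth muscle genes and 2 of 4 plasma cell genes were higher in the mammary gland. All 6 macrophage genes and 5 of 11 neutrophil genes were lower there, and of 6 adipocyte genes 1 was higher (FABP4, 9.07) and 2 were lower. The median of the neutrophil list turned from −0.30 to 0.69 with the 75th percentile, and that of the adipocyte list from −0.03 to 0.90.

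In the mammary gland, none of the 9 members was called in any of the vitamin groups, by limma or by Cyber-T, the test named in the study's methods. Limma called 0 of all genes with B9, B12 or B9 + B12, and Cyber-T called 0.0144%, 0.0251% and 0.018% of all genes. At an unadjusted p under 0.05, 0 of the 26 member probes were found in any of the 3 comparisons, where 2.55%, 2.28% and 1.95% of all probes were. For this tissue all values that follow, unless another scale is named, are log2 intensities after quantiles within the mammary gland. No brightest probe of a member had all arrays of a vitamin group above or below the 3 control arrays, where 6.99% (B9), 3.88% (B12) and 6.89% (B9 + B12) of all probes did. Over the 9 genes, the log2 change ran from −0.34 to 0.66 with B9, from −0.34 to 0.32 with B12, and from −1.04 to 0.07 with B9 + B12. UGP2 was lowest and LTF highest with B9, B4GALT1 lowest and LTF highest with B12, and LTF lowest and PGM1 highest with B9 + B12.

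The major whey genes were nearly the same in all 13 mammary biopsies on this scale. LALBA ran from 18.45 to 18.54, PAEP from 18.65 to 18.72, and GLYCAM1 from 18.14 to 18.23. These probes were among the 25 brightest spots of every mammary array, and quantile normalization gives such ranks almost a fixed value on every array. The scale of the 75th percentile does not do this. On it, LALBA was 18.26, 18.49 and 18.53 in the control cows (42, 43 and 51), 18.68, 18.52 and 18.05 with B9 (39, 41 and 57), 18.71, 18.47, 18.66 and 18.46 with B12 (36, 37, 40 and 52), and 18.45, 18.70 and 18.60 with B9 + B12 (31, 32 and 38). The lowest value belonged to cow 57 and the highest to cow 36, and every vitamin group overlapped the control cows. PAEP ran from 18.22 to 18.92 and GLYCAM1 from 17.79 to 18.51, also from cow 57 to cow 36. The raw 75th percentile itself was highest in cow 57 (8.66, log2) and lowest in cow 36 (7.96) of the mammary arrays, and its part in these values was not tested. In unscaled intensity the LALBA probe ran from 343886 to 390459 over the 13 arrays.

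B4GALT1 varied more between cows than between groups. Its intensity was 15.01, 15.50 and 15.45 in the control cows, 15.46, 15.65 and 14.89 with B9, 14.56, 15.49, 14.58 and 15.30 with B12, and 14.56, 16.05 and 15.02 with B9 + B12. All groups overlapped, and the highest and the lowest value both came from cows that received B12, alone or with B9. The change with B12 was −0.34, with a 95% interval from −1.12 to 0.45 that holds both a 2-fold fall and a small rise. UGP2 was 13.81, 13.85 and 13.70 in the control cows, against 12.71, 13.95 and 14.002 with B9 + B12. The low value was that of cow 31, which gave no hepatic array. SLC2A1 stayed between 10.18 and 10.86, LPO between 14.71 and 15.56, and PGM1 between 9.63 and 10.18 over all 13 cows. Their 95% intervals for the 3 vitamin groups lay within −0.36 to 0.48 for SLC2A1, −0.51 to 0.48 for LPO and −0.21 to 0.38 for PGM1, which leaves out a 2-fold change in either direction.

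**Figure D3:**
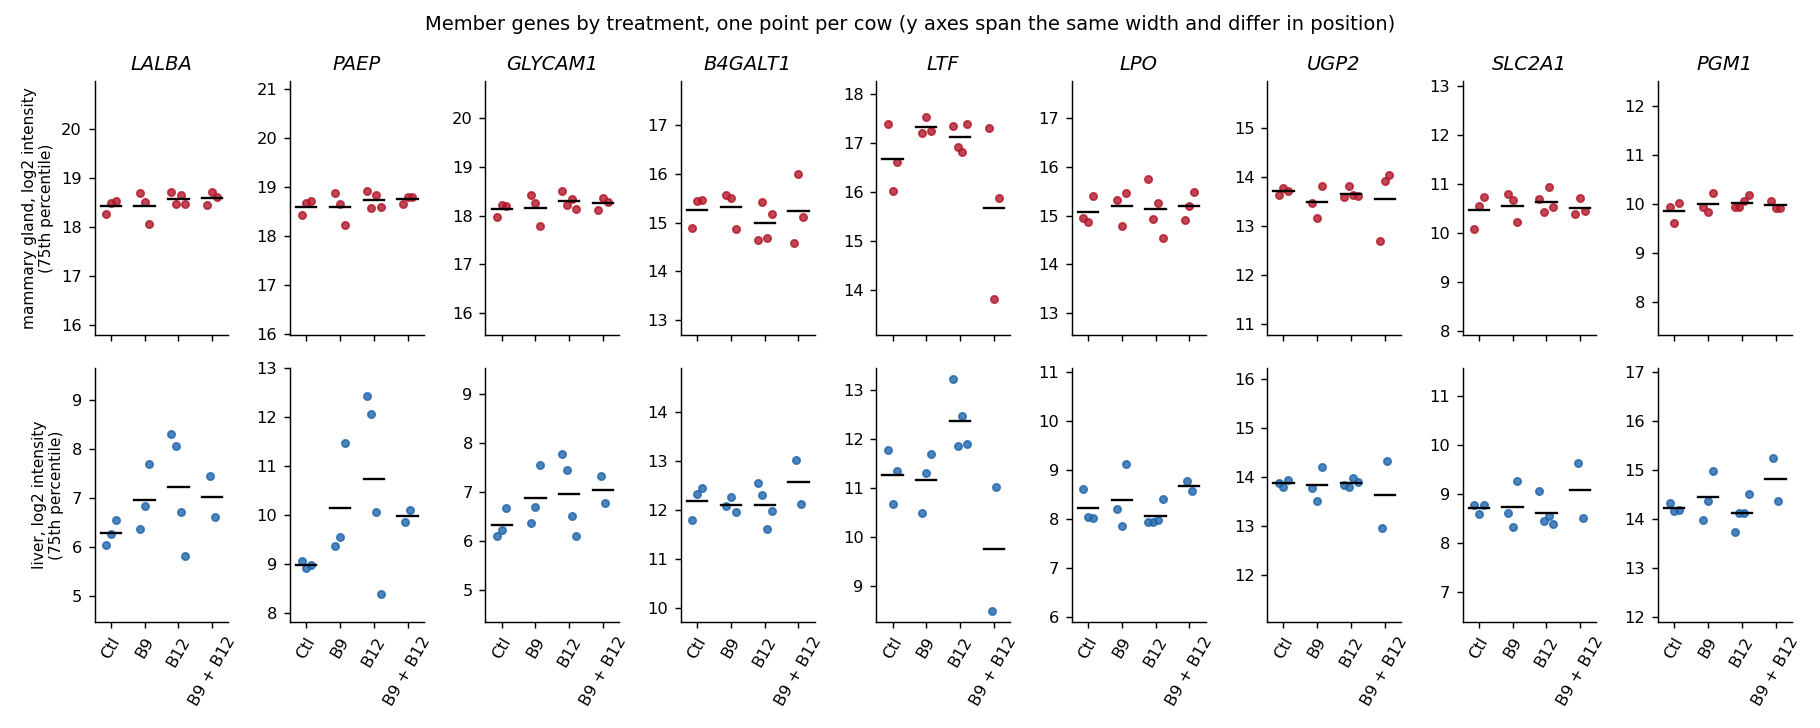
Log2 intensity, scaled by the 75th percentile of each array, of the brightest probe of each member gene by treatment, with 1 point per cow, the mammary gland and the liver in separate rows, and axes of equal width placed at different levels. In the mammary gland every vitamin group overlaps the control cows. In the liver LTF lies above the control cows with B12, as do PAEP with B9, and LALBA, PAEP, GLYCAM1 and PGM1 with B9 + B12. Hepatic LALBA, PAEP and GLYCAM1 spread most widely with B12.

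LTF was the most variable member in the mammary gland. Its intensity was 17.54, 16.08 and 16.60 in the control cows, 17.10, 17.44 and 17.65 with B9, 17.08, 16.97, 16.66 and 17.54 with B12, and 17.43, 13.87 and 15.80 with B9 + B12. Cow 32 of the B9 + B12 group was the lowest of all 13 cows, and cow 38 of that group was the next. The change with B9 + B12 was −1.04 (95% interval −2.59 to 0.51, adjusted p = 1 by limma, exact permutation test, two-sided, p = 0.4). Without cow 32 it was −0.13, without cow 31 it was −1.91, and without control cow 42 it was −0.64. The 4 other LTF probes followed the brightest probe over the cows with r between 0.962 and 0.993, and cow 32 was lowest on all 5, also on the scale of the 75th percentile. In the liver it was lowest on all 5 after quantiles, but on that other scale cow 39 was lowest on A_73_P107516 (6.82) and A_73_P379426 (6.20), and the hepatic agreement between LTF probes fell to r = 0.402 at the lowest. Lactoferrin is also stored in neutrophil granules. The mean over the 11 neutrophil genes found, after quantiles over both tissues, was 6.93 in cow 32, the second lowest of the 13 mammary biopsies. It was 6.93 to 7.18 with B9 + B12, against 7.17 to 7.45 in the control cows, 6.72 to 7.38 with B9 and 7.17 to 7.61 with B12. Their part in the LTF values was not tested. CXCR1 of this list was well above background on 0 of 13 mammary arrays.

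In the liver, 0 of the 9 members were called with B9, B12 or B9 + B12, by limma or by Cyber-T. Limma called 0%, 0.00359% and 0% of all genes, and Cyber-T 0.0144%, 0.097% and 0.0862%. At an unadjusted p under 0.05, 0, 2 and 1 of the 26 member probes were found, where 3.54%, 2.12% and 5.72% of all probes were, and all 3 were probes of LTF. All values that follow are log2 intensities after quantiles within the liver. The brightest probes of 3 members lay with all B9 arrays outside the control arrays, of 1 with B12 and of 4 with B9 + B12, where 8.45%, 4.98% and 21.8% of all probes did. They were LALBA, PAEP (both higher) and UGP2 (lower) with B9, LTF (higher) with B12, and LALBA, PAEP, GLYCAM1 and PGM1 (all higher) with B9 + B12. On the scale of the 75th percentile, LALBA and UGP2 overlapped the control cows with B9, and the others remained apart. With 2 or 3 treated cows against 3, an exact permutation test cannot go below p = 0.1, and with 4 against 3 it cannot go below p = 0.0286.

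Transcripts of the major whey genes were measurable in the liver, at very unequal levels. PAEP was 9.04, 8.90 and 8.94 in the control cows, 9.36, 9.55 and 11.27 with B9, 12.52, 12.11, 10.06 and 8.41 with B12, and 9.84 and 10.11 with B9 + B12. The control cows were nearly alike, cows 36 and 37 of the B12 group and cow 57 of the B9 group stood far above them, and cow 52 of the B12 group lay below them. The change with B12 was 1.81 (95% interval −0.17 to 3.80, adjusted p = 1 by limma), with B9 1.10 (−1.02 to 3.23) and with B9 + B12 1.01 (−1.36 to 3.39). Leaving out cow 36 took the B12 value to 1.23, leaving out cow 52 took it to 2.603, and leaving out cow 57 took the B9 value to 0.50. LALBA gave the same picture, with 6.38, 6.15 and 6.42 in the control cows and 8.33, 8.09, 6.84 and 6.10 with B12, a change of 1.03 (95% interval −0.10 to 2.15), which ranged from 0.70 to 1.84 over the alternatives. This probe was well above background on 10 of 12 hepatic arrays, and not in control cow 43 or in cow 52. The second LALBA probe (A_73_113728) was well above background on all 12, from 6.61 to 10.64, and its change with B12 was 1.77 (95% interval −0.17 to 3.70). The other 2 PAEP probes, well above background on 10 and 11 arrays, differed by 0.81 and 0.997 with B12. GLYCAM1 differed by 0.72 with B12 (95% interval −0.09 to 1.54), with a range from 0.44 to 1.33. The second GLYCAM1 probe (A_73_P118441) was well above background on 4 of 12 hepatic arrays, and on none of the control arrays.

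These whey genes varied together across the hepatic biopsies. Over the 12 cows, LALBA correlated with PAEP at r = 0.983 (Spearman's rho 0.944), LALBA with GLYCAM1 at 0.974 (rho 0.958), and PAEP with GLYCAM1 at 0.961 (rho 0.944), each with an adjusted p of at most 3e-04 over 45 relations by a permutation test. Without the 2 cows farthest from the median the r values were 0.949, 0.953 and 0.922, and among the 9 arrays of the first scan day 0.986, 0.979 and 0.972. The mean over PAEP, LALBA, GLYCAM1 and the casein genes CSN1S1, CSN1S2 and CSN3 was 9.98 in cow 36 and 9.62 in cow 37 (both B12), 8.88 in cow 57 (B9), and between 6.81 and 8.12 in the other 9 cows. The control cows had 7.17, 7.09 and 7.23. Over the 3 caseins alone it was 10.40 in cow 36, 10.01 in cow 37, 8.93 in cow 57 and between 6.67 and 8.38 in the others, and no test was run on it. No pair of LTF, LPO, B4GALT1, UGP2, SLC2A1 or PGM1 with LALBA, PAEP or GLYCAM1 reached an adjusted p of 0.05 over the 12 cows. Of these, SLC2A1 had r of 0.393 with LALBA, 0.297 with PAEP and 0.425 with GLYCAM1, and 0.727, 0.687 and 0.780 among the 9 arrays of the first scan day. The secretory epithelium list holds these caseins, and over its other 12 genes the mean, after quantiles over both tissues, ran only from 8.26 (cow 41) to 8.59 (cow 36), with 8.59 in cow 57, 8.56 in cow 37 and 8.54 in control cow 51. On the scale of the 75th percentile the highest of these means were 9.33 in cow 32, 9.22 in cow 57 and 9.06 in cow 51, so that the order of the cows depended on the scale. Of the 15 genes of that list, MUC15 was well above background on 0 of 12 hepatic arrays and BTN1A1 on 1, and the other 13 on all 12. The source of the milk gene signal in the liver was not tested.

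**Figure D4:**
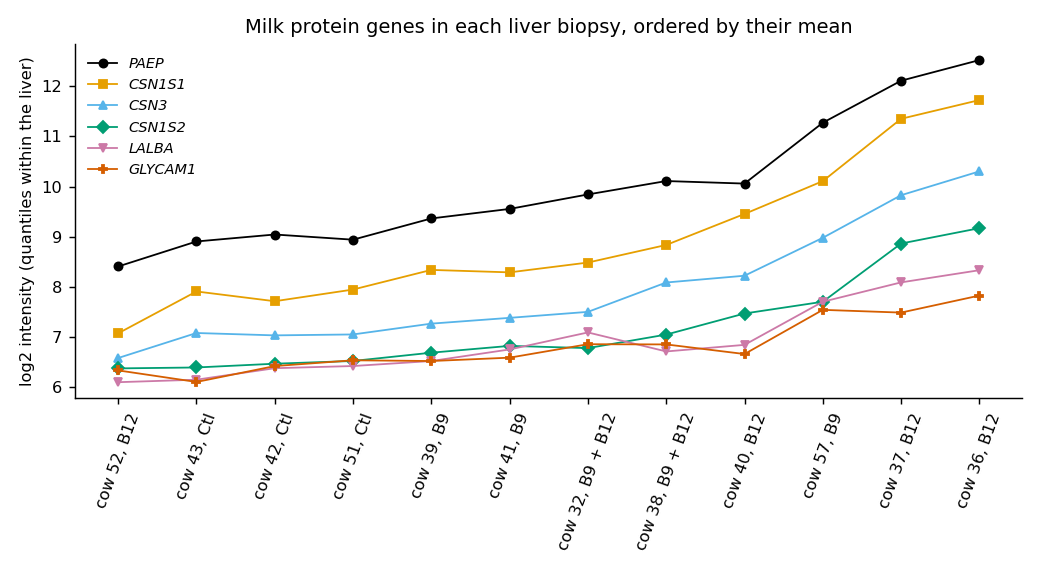
Log2 intensity, after quantiles within the liver, of PAEP, LALBA, GLYCAM1 and 3 casein genes in each of the 12 hepatic biopsies, ordered by their mean. The 6 genes run in parallel from a mean of 6.81 in cow 52 to 9.98 in cow 36, both of the B12 group.

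Hepatic LTF differed from the control cows in opposite directions in the B12 group and the group given both vitamins, in neither case past the adjusted test. Its intensity was 11.84, 10.701 and 11.41 in the control cows, 10.51, 11.37 and 11.48 with B9, 13.39, 11.90, 12.50 and 11.94 with B12, and 8.47 and 11.05 with B9 + B12. All 4 B12 cows lay above the 3 control cows, cows 37 and 52 only just, while cow 32 of the B9 + B12 group lay far below every other biopsy. With B12 the change was 1.11 (standard error 0.60, 95% interval −0.22 to 2.45), with an adjusted p of 1 by limma and of 0.26 by Cyber-T, and p = 0.0857 by an exact permutation test, two-sided. With B9 + B12 it was −1.56 (standard error 0.72, 95% interval −3.16 to 0.04, adjusted p = 0.687 by limma). Without cow 32 the latter was −0.27, and without cow 38, which leaves cow 32 as the only B9 + B12 array and assumes that it varies like the other groups, −2.84.

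With B9 alone, hepatic LTF differed from the control cows by −0.20 (standard error 0.64, 95% interval −1.63 to 1.23). In the factorial contrasts, which average B9 alone against control and B9 + B12 against B12, the difference with B9 was larger and rested mainly on the second of these. It was −1.43 (standard error 0.47, 95% interval −2.48 to −0.39). Its unadjusted p was 0.0121 and its adjusted p 0.491 by limma. A two-sided exact permutation test gave p = 0.0265, but it pooled all cows with B9 against all without. It shuffled cows across the B12 groups, so it mixes in the difference with B12 and does not test this average. The interaction of B9 with B12 was −2.47 (standard error 0.93, 95% interval −4.56 to −0.39, unadjusted p = 0.0248 and adjusted p = 1 by limma). All 5 LTF probes had an unadjusted p under 0.05 in each of these contrasts, and no other member probe had, where 9.43% and 4.05% of all probes did. The probes of 1 gene share its transcript and do not count as separate observations. Neither contrast passed the adjusted test. Without cow 32 the difference with B9 was −0.79 and the interaction −1.19, and with both hepatic arrays that stood apart left out they were −0.88 and −1.004. With the scan day as a block they were −1.49 and −1.73. The hepatic mean over the neutrophil genes was taken after quantiles over both tissues. It was 7.48 to 7.85 with B12, 7.56 to 7.99 with B9 and 7.52 to 7.82 with B9 + B12. In the control cows it was 7.44 to 7.92, so that all groups overlapped. In the mammary gland, the interaction was −2.02 (95% interval −4.15 to 0.10, adjusted p = 1 by limma), and −1.11 without cow 32.

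**Figure D5:**
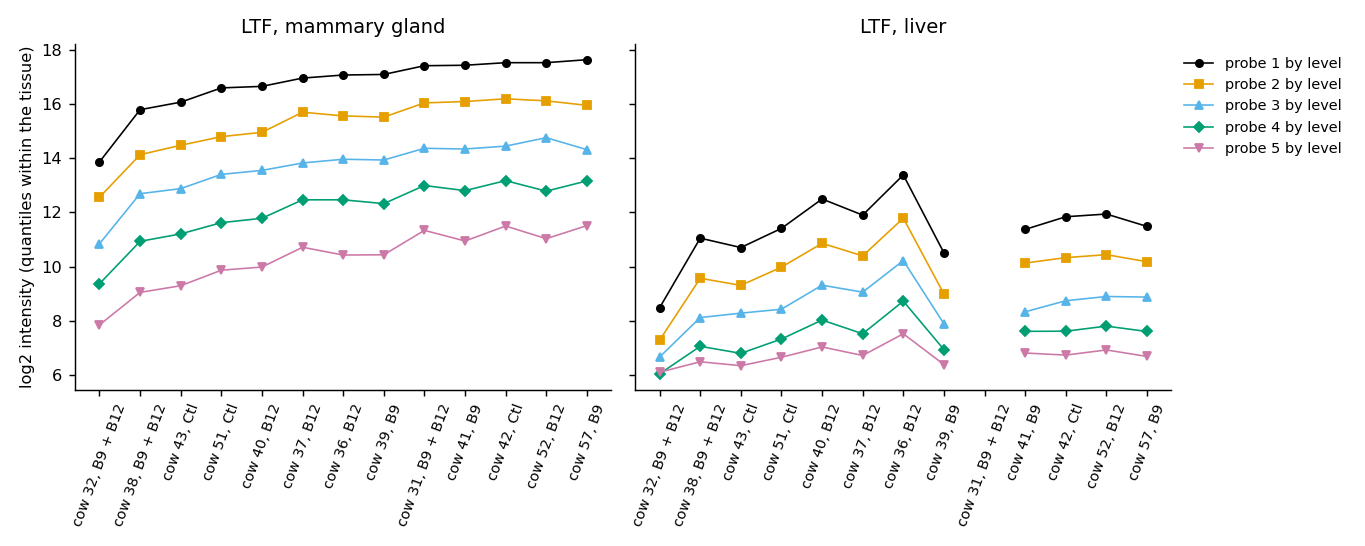
Log2 intensity, after quantiles within each tissue, of the 5 LTF probes in every cow, for the mammary gland and the liver, with 1 line per probe. Cow 32 of the B9 + B12 group is lowest on all 5 probes in both tissues on this scale, and on the brightest probe it has 13.87 in the mammary gland and 8.47 in the liver.

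On the lactose route, no gene was called in the liver, although with B9 + B12 the 95% intervals of UGP2 and SLC2A1 hold a 2-fold change. B4GALT1 was 11.86, 12.40 and 12.52 in the control cows and between 11.60 and 12.71 in the others, with changes of −0.21, −0.09 and 0.19 for B9, B12 and B9 + B12. UGP2 was 13.97, 13.91 and 14.01 in the control cows, 13.85, 13.58 and 13.74 with B9 and 12.64 and 14.41 with B9 + B12. The latter 2 cows lay on opposite sides of the control cows. With B9 + B12 the change of UGP2 was −0.44 (95% interval −1.28 to 0.41). With cow 32 as the only array of that group it was −1.32 (adjusted p = 0.00606 by limma), and with cow 38 as the only array it was 0.45, so that the only call of a member in any treatment comparison or alternative rested on the array of cow 32. PGM1 was 14.81 and 14.47 with B9 + B12, above the 14.39, 14.25 and 14.28 of the control cows, a change of 0.33 (95% interval −0.09 to 0.75). SLC2A1 reached 9.65 in cow 32 and 9.30 in cow 57, the arrays that stood apart, against 8.29 to 9.06 in the other hepatic biopsies. LPO ran from 7.82 to 9.15, with cow 57 highest.

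None of the listed genes of sugar supply, of other whey proteins or of the cell types was called in any treatment comparison of either tissue. Among the 19 sugar supply genes, the median change against the control cows lay between −0.07 and 0.20 over the 3 vitamin groups and both tissues, and among the 16 whey protein genes between −0.04 and 0.02. The medians of the 7 cell type lists lay between −0.23 and 0.20, apart from 3 in the liver. With B9 + B12 the median was 0.80 over the 4 plasma cell genes (from −0.07 to 1.24, 1 with an unadjusted p under 0.05) and 0.38 over the 8 myoepithelial and smooth muscle genes (from 0.03 to 0.88, none under 0.05), and with B9 it was 0.38 over the plasma cell genes. The median of all probes was at most 0.02. The effect of a vitamin on a member was also compared between the tissues in a single limma fit, with 0 of 9 genes called for B9, B12 or B9 + B12, as for 0% of all genes. The widest of these differences was PAEP with B12, at −1.67 for the mammary gland minus the liver (standard error 0.83, unadjusted p = 0.0581 and adjusted p = 1 by limma). The quantile values of PAEP in the mammary gland were nearly fixed, as given above, so that this difference held the spread of the liver alone.

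Levels of the members were set against each other over the 13 mammary biopsies. After quantiles, 0 of 36 pairs of genes reached an adjusted p of 0.05 in a permutation test by Pearson's r or by Spearman's rho. Nothing is read from the pairs that hold LALBA, PAEP or GLYCAM1, whose values were nearly fixed on this scale. At an unadjusted p under 0.05 there was 1 pair by r, which was of this kind (PAEP with B4GALT1). By rho there were also B4GALT1 with PGM1 (rho = −0.589) and LTF with PGM1 (rho = 0.624). On the scale of the 75th percentile 6 pairs reached an adjusted p of 0.05 by r and by rho. They were LALBA with PAEP (r = 0.982, rho = 0.940, adjusted p = 1.5e-04), LALBA with GLYCAM1 (r = 0.974, rho = 0.962, adjusted p = 1.5e-04), PAEP with GLYCAM1 (r = 0.963, rho = 0.912, adjusted p = 1.5e-04), and SLC2A1 with LALBA (r = 0.821, rho = 0.824), PAEP (r = 0.811, rho = 0.808) and GLYCAM1 (r = 0.791, rho = 0.758), the last 3 with adjusted p of 0.00684, 0.00684 and 0.00967. Without the 2 arrays farthest from the median, the 6 r values ranged from 0.638 to 0.939. The 3 pairs with SLC2A1 rest on its brightest probe, which its other 2 probes followed only at r of 0.108 and 0.335 on this scale. All genes of an array share its 75th percentile as the divisor on this scale. The share of probes well above background moved with these genes, at r = −0.474 for LALBA (rho = −0.511), −0.558 for PAEP (rho = −0.665) and −0.542 for GLYCAM1 (rho = −0.538), and none passed the adjusted test (permutation adjusted p of r from 0.240 to 0.385). Without the 2 arrays farthest from the median these r were −0.771, −0.880 and −0.335, and the part of this share in the 6 pairs was not tested. Between the tissues of a cow, LTF correlated at r = 0.740 (rho = 0.434, permutation p = 0.017, adjusted p = 0.0913 over 9 genes), and at 0.340 without cows 32 and 36. LALBA had r = −0.659 (rho = −0.427, permutation p = 0.0203, adjusted p = 0.0913), but its mammary values were nearly fixed by the quantiles and nothing is read from it. None of the 9 genes passed the adjusted test.

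The genes whose deviations from the group means were most like those of LTF over the 13 mammary arrays, after quantiles and among 8483 genes, were CETN3 (r = 0.984), S1PR3 (0.934), MCM6 (0.930), SGCB (0.930) and ARHGAP6 (0.922). Without cow 32, CETN3 still had r = 0.961 and ARHGAP6 0.791. For B4GALT1 they were SNURF (0.955), FGFBP1 (0.880), HERC6 (0.867), TRIM3 (0.863) and DNAJC12 (0.860). CETN3 and SNURF also led their lists on the scale of the 75th percentile, with r of 0.964 and 0.929. For LALBA no genes are given after quantiles, where its values were nearly fixed. On the scale of the 75th percentile, where all genes of an array share a divisor, they were CSN1S2 (0.987), GLYCAM1 (0.981), PAEP (0.980), KLF13 (0.978) and ST3GAL1 (0.976). The probes of a gene did not always vary together over the mammary arrays. The other probes of B4GALT1 and UGP2 followed the brightest one with r of at least 0.960 and 0.847, whereas those of SLC2A1 had r of 0.313 and 0.450 after quantiles, and those of PGM1 from −0.04 to 0.847. The probes of the major whey genes disagreed most after quantiles, with r from −0.683 to −0.395 for PAEP, −0.03 for GLYCAM1 and 0.02 for LALBA, against 0.904 to 0.979 over the 3 genes on the scale of the 75th percentile.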

How the data were processed

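RNA of hepatic and mammary biopsies was hybridised to 1-colour Agilent 4x44K bovine arrays, 25 in all on 8 slides, and group and cow were taken from the sample labels. The deposited scanner files hold the spot and background intensities of Agilent Feature Extraction (version 10.7.3.1 per the file headers, 9.1 per the submitters' processing notes) without normalization between arrays. The authors' value table holds log2 values after normexp background correction and normalization. It was matched by normexp (offset 16) and quantiles per tissue with a median absolute difference of 0.00185 (liver) and 0.000951 (mammary gland), and was used as an alternative. The probe design is annotated on an older assembly (HGSC Btau_3.1), so transcript names were paired with symbols only (RefSeq, ARS-UCD2.0), for 53.9% of the 43653 probes, and no coordinates or sequences are given.

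Median spot intensities were corrected by normexp (offset 50) and quantile-normalized per tissue, or over both for the tissue comparison, and taken to log2. Control and outlier spots were left out and spots of a probe averaged. Each contrast was fitted over all probes with limma 3.58.1 in R 4.3.3, with Benjamini-Hochberg adjustment, and called at an adjusted p of at most 0.05 with at least a 2-fold difference. A gene was called with at least 1 called probe. Cyber-T, named in the study's methods, was run with a window of 50 probes to each side and a confidence of 10. Correlations were tested with 100000 permutations. Tested on simulated data, limma called 29.9% of 2-fold and 98.5% of 4-fold changes for B12 in the liver, and 40.3% and 100% for B12 in the mammary gland. The changes were added to randomly drawn probes with normal spread, and a true 2-fold change lies at the threshold itself. The shares do not apply to members with a wide spread between cows, such as hepatic PAEP (SD 1.31, n = 12) or LTF (SD 1.20, n = 12).

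The same cow gave both tissues by the labels. Deviations of its 2 arrays from their group means correlated between −0.245 and 0.262 (median 0.0374), above 0.1 in 4 of 12 cows. Within a tissue, each array was a separate cow. Members and gene lists were chosen with earlier results of these data known. Members are named by their brightest probe in the mammary gland, list genes by the 3 largest tissue differences in either direction (1 of them is not reported here), and genes most like LALBA, LTF and B4GALT1 by the 5 highest r (for LALBA on the scale of the 75th percentile only, a choice made after seeing the data). Alternatives covered the background correction, scaling, dim and outlier probes, slide, cow and each left-out cow. The scan day as a block, the removal of hepatic cows 32 and 57, the hepatic and between-tissue correlations, and the hepatic means of the secretory epithelium list without the caseins and of the caseins alone were added after seeing the data.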

Additional observations from a re-analysis of the deposited data

Results flagged for a closer look

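Groups of 4 cows were checked for a single cow far from the rest, in 18 combinations of gene and tissue of the B12 group, of which 2 stood out. Chance alone marks about 1 group in 20. Hepatic LPO was 8.43 in cow 52 against 7.95 to 8.02 in the other 3 cows, a gap of 0.848 of the whole range of the group, above the limit of 0.829. Mammary GLYCAM1 had a gap of 1 of its range, since 3 of the 4 arrays shared the same quantile value at the top of the scale and the group ran only from 18.19 to 18.23.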

How the results depend on the processing

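The members called between the tissues numbered 8 to 9 over 39 alternatives, and no direction changed other than that of UGP2, which was −0.19 after quantiles within each tissue. The 0 members called in each treatment comparison stayed at 0 in all of 24 to 27 alternatives per comparison, except for B9 + B12 in the liver, where leaving out 1 cow gave 0 to 1 called genes (UGP2, without cow 38, where a single array then stands for the group). The number of correlated pairs in the mammary gland was 0 after quantiles and 6 with the 75th percentile scaling, and the cause was not tested. With the cow as a replicate block, random or fixed, 9 of 9 members were called between the tissues and 0 in the differences of treatment effects, so that it changed no call. With the slide as a fixed block, 6 of 9 hepatic differences with any B12 changed sign, and 0 were called. The tissue difference ranged from 11.49 to 14.68 for LALBA, 11.42 to 14.26 for GLYCAM1 and 8.74 to 11.14 for PAEP. The highest value of LALBA and of GLYCAM1 came from the processed signal with the 75th percentile scaling. This setting changed the background correction and the scaling together. Hepatic PAEP with B12 ranged from 1.21 to 2.603. Hepatic LTF ranged from 0.80 to 1.38 with B12, from −2.84 to −0.27 with B9 + B12 and from −2.08 to −0.79 with any B9. Hepatic UGP2 ranged from −1.32 to 0.45 with B9 + B12 and from −0.79 to 0.10 with any B9. In these B9 + B12 and any B9 ranges, the lowest value came without cow 38 and the highest without cow 32. Each of these fits left a single B9 + B12 array, and for UGP2 the sign depended on which cow was kept. The number of cows and, for the brightest LALBA probe and both GLYCAM1 probes in the liver, signal close to background limit the precision.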
